A study of Mus musculus with 32 samples.

Results

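The disease-associated microglia core genes examined here are Cst7, Itgax, Clec7a, Gpnmb, Spp1, Lpl, Cd63 and Cd9. They were taken by name, as the 8 rows of the count table that carry these symbols, out of 42524 genes. RNA-seq counts were available for the spinal cord of 32 mice in 8 groups of 4. Wild-type mice (WT) and mice carrying the human SOD1 G93A transgene (G93A) were either untreated or treated with OKN-007, a nitrone compound given in the drinking water, and the labels give the time as 90 or 155 days. The series' design text describes that time as the period of treatment, whereas the study's methods describe ages at sacrifice of 95 and 155 days, and the labelled times are used here. The G93A mice are the line B6-Tg(SOD1-G93A)1Gur/J kept on the C57BL/6J background, in which the transgene is driven by the human SOD1 promoter and is therefore not limited to 1 cell type. All groups share that background. The labels give no dose or sex, and the methods describe a lower and a higher dose, of which the cohorts sacrificed at 95 and 155 days, all females, received the higher.

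Microglia are the resident macrophages of the central nervous system. In injured or degenerating tissue a share of them lowers a set of homeostatic genes, such as the purinergic receptor gene P2ry12, and raises a set of genes for lipid handling, lysosomal degradation and cell adhesion, a state called disease-associated microglia, whose later step is known to depend on the receptor TREM2. The 8 genes are widely used as markers of that state. Clec7a (dectin-1, a receptor for fungal beta-glucans) and Itgax (integrin alpha X, CD11c, a subunit of complement receptor 4) lie at the cell surface. Spp1 (osteopontin, a secreted ligand of integrins and CD44) and Lpl (lipoprotein lipase, which frees fatty acids from triglycerides) are secreted. Cst7 (cystatin F, an inhibitor of lysosomal cysteine proteases) and Gpnmb (a type I membrane glycoprotein of lysosomes and melanosomes) act in the endolysosomal system, and Cd63 and Cd9 are tetraspanins of late endosomes, extracellular vesicles and the plasma membrane. Several of them are not restricted to microglia, since motor neurons express Spp1, oligodendrocyte lineage and Schwann cells express Cd9, many cell types express Cd63, and dendritic cells express Itgax.

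In the GENCODE M21 annotation (GRCm38), Cst7 (ENSMUSG00000068129) lies at chr2:150570415-150578944 on the plus strand, Itgax (ENSMUSG00000030789) at chr7:128129547-128150657 on the plus strand, Clec7a (ENSMUSG00000079293) at chr6:129461591-129472779 on the minus strand and Gpnmb (ENSMUSG00000029816) at chr6:49036546-49070929 on the plus strand. Spp1 (ENSMUSG00000029304) lies at chr5:104435118-104441050 on the plus strand, Lpl (ENSMUSG00000015568) at chr8:68880491-68907448 on the plus strand, Cd63 (ENSMUSG00000025351) at chr10:128900989-128912822 on the plus strand and Cd9 (ENSMUSG00000030342) at chr6:125460266-125494791 on the minus strand. Promoter windows from RefSeq (GRCm38.p6, 250 bases before to 50 after the annotated start) matched 7 of the 8 genes, all but Lpl. The window of Cd63, chr10:128909095-128909394, lies inside the gene span given above and not at its start. The windows of Cst7, Itgax, Clec7a and Gpnmb are shown because these 4 genes had the largest fold changes of the 8 at 155 days. Capitals mark an AP-1 site (letters TGANTCA, which reads alike on both strands) in Cst7, Itgax and Gpnmb and the ETS core GAGGAA of the type bound by PU.1 in Clec7a, and no marked motif overlapped another. Their positions are chr2:150570165-150570464 on the plus strand for Cst7, chr7:128129300-128129599 on the plus strand for Itgax, chr6:129472730-129473029 on the minus strand for Clec7a and chr6:49036268-49036567 on the plus strand for Gpnmb.
Cst7: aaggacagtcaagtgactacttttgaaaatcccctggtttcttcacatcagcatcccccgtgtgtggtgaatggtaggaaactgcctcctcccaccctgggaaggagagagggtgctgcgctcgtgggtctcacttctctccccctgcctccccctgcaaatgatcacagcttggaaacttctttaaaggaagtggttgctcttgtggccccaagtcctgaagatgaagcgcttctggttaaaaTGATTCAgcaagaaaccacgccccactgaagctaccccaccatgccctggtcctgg
Itgax: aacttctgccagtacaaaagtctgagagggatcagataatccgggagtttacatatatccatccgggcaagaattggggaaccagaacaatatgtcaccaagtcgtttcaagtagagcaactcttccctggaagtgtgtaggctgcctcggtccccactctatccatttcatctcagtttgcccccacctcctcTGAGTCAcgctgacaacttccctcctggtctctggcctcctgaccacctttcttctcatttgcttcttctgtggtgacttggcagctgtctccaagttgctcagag
Clec7a: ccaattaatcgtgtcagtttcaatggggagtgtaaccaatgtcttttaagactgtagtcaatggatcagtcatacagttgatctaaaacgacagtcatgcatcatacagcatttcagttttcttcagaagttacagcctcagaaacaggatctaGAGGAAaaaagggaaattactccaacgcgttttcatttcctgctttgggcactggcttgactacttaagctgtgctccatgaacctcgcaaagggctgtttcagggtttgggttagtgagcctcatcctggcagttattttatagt
Gpnmb: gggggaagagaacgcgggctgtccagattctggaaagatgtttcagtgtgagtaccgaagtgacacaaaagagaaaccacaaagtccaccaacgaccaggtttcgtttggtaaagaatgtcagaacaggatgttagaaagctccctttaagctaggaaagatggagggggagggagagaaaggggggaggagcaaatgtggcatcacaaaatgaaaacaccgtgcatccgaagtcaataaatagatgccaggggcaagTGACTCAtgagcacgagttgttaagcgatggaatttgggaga

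The AP-1 letters were present in the windows of 3 of the 7 genes, Cst7, Itgax and Gpnmb, and in 7.81% of all 32851 promoter windows of the same length. GAGGAA, searched on both strands, was present in 3 of 7 (Clec7a, Spp1 and Cd63) and in 28.3% of all windows. For Cd63 this is the window inside the gene span. The E-box CACGTG, bound by MITF and TFEB, was in 0 of 7 and in 7.15% of all windows, and the M-box core CATGTG was in 1 of 7 (Cd9) and in 14.2%. These are matches of letters in a window and are not evidence of binding.

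Each mouse had 19701722 to 30138257 gene counts (median 26658755), and 3 counts in the smallest library correspond to 0.152 CPM, a limit of counting error only. CPM is the count of a gene relative to its library, scaled by edgeR's TMM factors. Levels of different genes are compared per kilobase of exon (RPKM). Groups were compared with edgeR's quasi-likelihood test and Benjamini-Hochberg adjustment over 18899 genes at 90 days and 18675 at 155 days, and a gene is said to have risen or fallen where the adjusted p was under 0.05. All 8 genes passed the filter on low counts at both ages. The human transgene is not a gene of the mouse table, and mouse Sod1 was at 246 to 355 CPM in WT and 234 to 392 CPM in G93A mice, so it checks no label. The labels name no batch, and the p-values measure the spread between these mice. In bulk tissue, more cells of a type and more RNA per cell cannot be told apart.

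At 155 days all 8 genes were higher in G93A than in WT mice, with and without OKN-007. Cst7 was near the lower limit of detection in WT spinal cord, Itgax, Clec7a and Gpnmb were low there (at most 1.90 CPM in untreated mice), and these 4 genes differed by 93.6-fold to 225-fold in untreated mice, as ratios of mean CPM. Lpl differed by 25.2-fold from a low WT level, and Spp1, Cd63 and Cd9, which were abundant in WT tissue, differed by 3.98-fold to 5.81-fold. The rise passed the test for 8 of 8 genes in untreated mice, where 21.3% of the tested genes rose, and for 8 of 8 in OKN-007 mice, where 23.3% rose. In both comparisons every G93A mouse was above every WT mouse for 8 of 8 genes, against 15.6% of tested genes in untreated and 20.2% in OKN-007 mice. The median log2 fold change of the 8 was 5.66 in untreated and 6.17 in OKN-007 mice, beside 0.00015 and 0.02 over all tested genes.

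Cst7 was counted with 5, 5, 5 and 1 reads in the 4 untreated WT mice at 155 days (0.190, 0.213, 0.194 and 0.0327 CPM) and with 712, 911, 1328 and 736 reads in the untreated G93A mice (26.6, 37.5, 54.0 and 23.9 CPM). With OKN-007 the WT mice had 0.115, 0.111, 0.112 and 0.180 CPM and the G93A mice 37.9, 33.6, 37.2 and 29.7 CPM. The genotypes were far apart, with the lowest G93A mouse at 23.9 CPM and the highest WT mouse at 0.213 CPM. The log2 fold change of Cst7 was 7.87 (SE 0.33, adjusted p = 3.99e-12 by edgeR's quasi-likelihood test) in untreated and 8.08 (SE 0.33, adjusted p = 3.28e-12) in OKN-007 mice, the fifth largest of 18675 genes in each comparison. The WT side of this fold rests on 1 to 5 reads per mouse.

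Gpnmb was at 1.90, 1.66, 1.01 and 1.21 CPM in untreated WT mice and at 213, 267, 292 and 90.6 CPM in untreated G93A mice at 155 days. The OKN-007 mice had 1.12, 0.999, 1.61 and 1.55 CPM in WT and 343, 293, 208 and 182 CPM in G93A. Gpnmb varied more between G93A mice than any other of the 8 genes, with untreated replicate 12 at 90.6 CPM below the other 7 mice, yet the genotypes did not overlap. Its log2 fold change was 7.27 (SE 0.37, adjusted p = 3.88e-11, edgeR) in untreated and 7.67 (SE 0.37, adjusted p = 2.04e-11) in OKN-007 mice, ranks 10 and 7 of 18675 genes.

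Itgax was at 0.494, 0.298, 0.622 and 0.229 CPM in untreated WT mice and at 45.8, 76.4, 73.2 and 47.8 CPM in untreated G93A mice. With OKN-007 it was at 0.231, 0.222, 0.187 and 0.288 CPM in WT and 77.0, 65.9, 66.3 and 53.8 CPM in G93A mice. Its log2 fold change was 7.25 (SE 0.24, adjusted p = 2.38e-13, edgeR) in untreated and 8.19 (SE 0.26, adjusted p = 9.75e-14) in OKN-007 mice, ranks 11 and 4. Of the dendritic cell genes listed, Flt3 and Zbtb46 had log2 fold changes of -0.59 and -0.45 in untreated G93A mice (2 of 2 tested fell, and 1 of 2 in OKN-007 mice). Xcr1 and Cd209a were too low to be tested. Which cells carried Itgax, Flt3 or Zbtb46 was not tested.

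Clec7a was at 1.48, 1.19, 1.79 and 0.490 CPM in untreated WT mice and at 98.2, 152, 131 and 83.0 CPM in untreated G93A mice. With OKN-007 the values were 0.769, 0.777, 0.899 and 0.611 CPM in WT and 148, 133, 122 and 109 CPM in G93A mice. The annotation lists Clec7a as a polymorphic pseudogene, a class for genes that are coding in some strains. Its log2 fold change was 6.61 (SE 0.24, adjusted p = 8.27e-13, edgeR) in untreated and 7.46 (SE 0.26, adjusted p = 2.74e-13) in OKN-007 mice, ranks 16 and 10.

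Lpl was at 8.14, 4.77, 7.54 and 4.97 CPM in untreated WT mice and at 110, 216, 177 and 138 CPM in untreated G93A mice. The OKN-007 mice had 6.38, 5.51, 7.23 and 5.07 CPM in WT and 204, 175, 154 and 149 CPM in G93A. Its log2 fold change was 4.70 (SE 0.21, adjusted p = 1.04e-11, edgeR) in untreated and 4.89 (SE 0.21, adjusted p = 3.88e-12) in OKN-007 mice, ranks 62 and 66. The adipocyte genes listed (Adipoq, Plin1, Cidec), which accompany Lpl in fat, had too few counts to be tested (0 of 3), and their summed level was at most 5.86 CPM in any mouse at 155 days. The cell source of Lpl was not tested.

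Spp1 was at 144, 124, 142 and 113 CPM in untreated WT mice and at 540, 737, 826 and 409 CPM in untreated G93A mice. The OKN-007 mice had 126, 127, 124 and 151 CPM in WT and 777, 659, 600 and 582 CPM in G93A. Its log2 fold change was 2.31 (SE 0.16, adjusted p = 2.07e-09, edgeR) in untreated and 2.38 (SE 0.16, adjusted p = 1.15e-09) in OKN-007 mice, ranks 502 and 530. Of the motor neuron genes, whose cells are also a source of Spp1, 7 of 8 fell in untreated and 8 of 8 in OKN-007 G93A mice. Those that fell in untreated mice ran from -2.60 for Chodl to -0.41 for Chat on the log2 scale. Which cells carried the higher Spp1 was not tested.

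Cd63 was at 78.6, 95.1, 69.8 and 84.3 CPM in untreated WT mice and at 271, 366, 427 and 243 CPM in untreated G93A mice, with 86.7, 73.2, 82.6 and 69.9 CPM in WT and 410, 358, 354 and 315 CPM in G93A mice given OKN-007. Its log2 fold change was 2.04 (SE 0.15, adjusted p = 3.55e-09, edgeR) in untreated and 2.27 (SE 0.15, adjusted p = 7.66e-10) in OKN-007 mice, ranks 642 and 585. Cd9 was at 69.5, 67.3, 69.2 and 64.7 CPM in untreated WT mice and at 315, 475, 471 and 312 CPM in untreated G93A mice, with 65.7, 58.3, 69.8 and 62.9 CPM in WT and 518, 448, 456 and 384 CPM in G93A mice given OKN-007. Both tetraspanin genes were thus well expressed without disease and their WT mice lay close together. The log2 fold change of Cd9 was 2.58 (SE 0.13, adjusted p = 3.35e-11, edgeR) in untreated and 2.89 (SE 0.13, adjusted p = 7.21e-12) in OKN-007 mice, ranks 395 and 359. Of the genes of oligodendrocytes, which also express Cd9, 1 of 6 rose (Mag, log2 fold change 0.25), and the cell source of Cd9 was not tested.

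**Figure D1:**
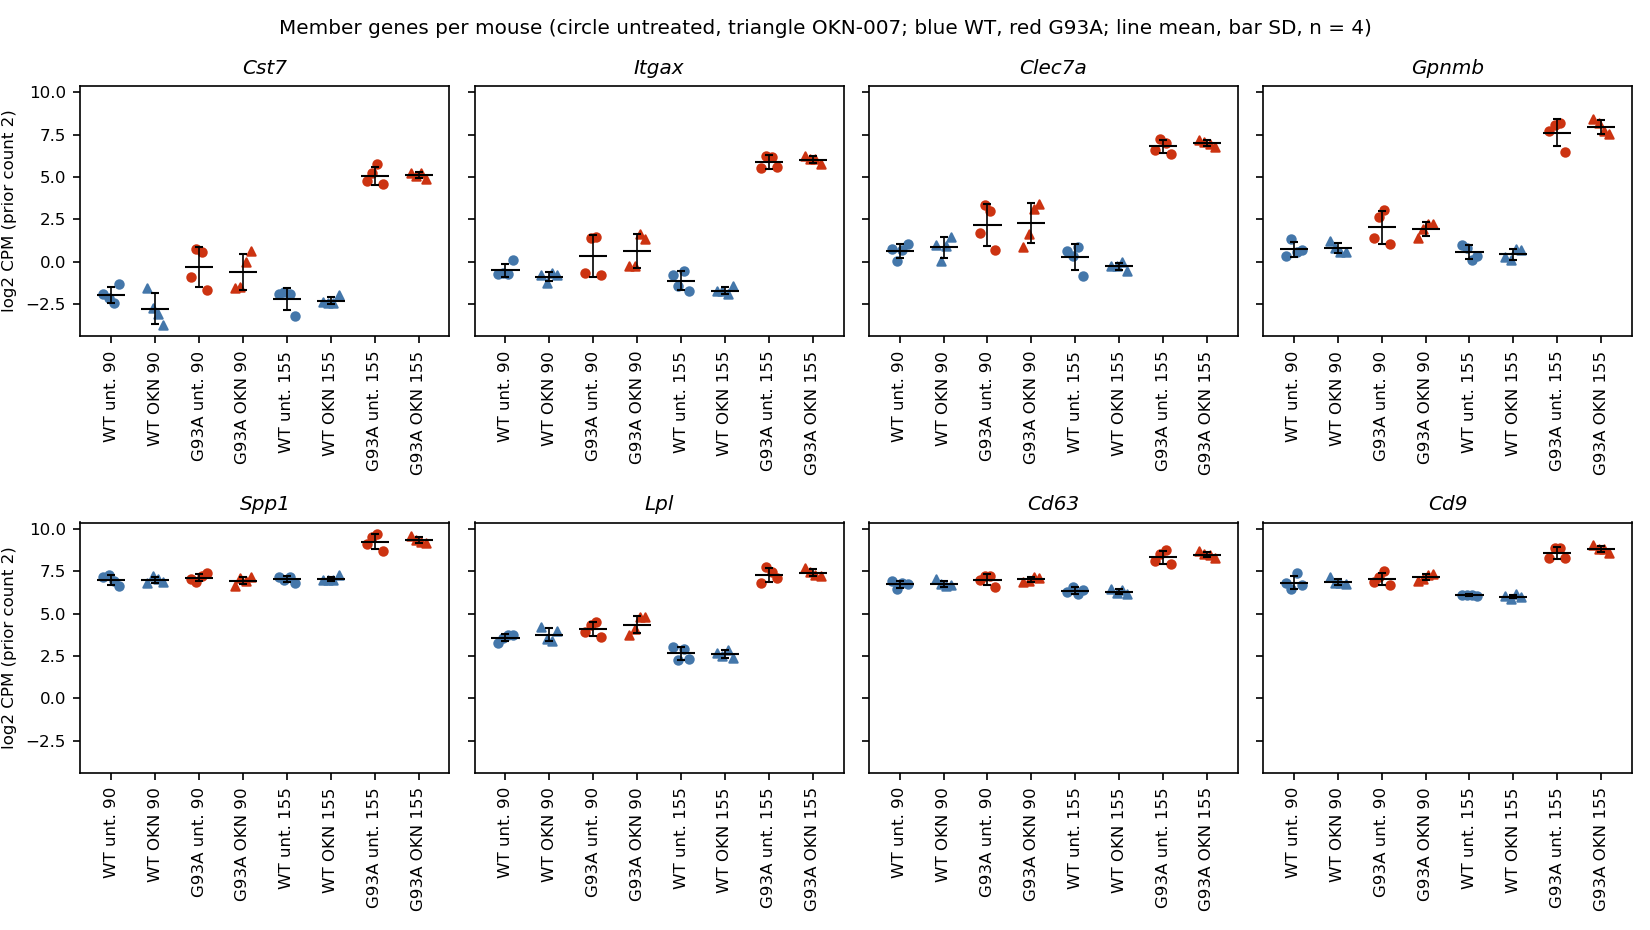
The log2 CPM (prior count 2) of each of the 8 genes in each of the 32 mice, with the mean and SD of each group of 4 (circles untreated, triangles OKN-007, blue WT, red G93A). In all 8 panels the 155-day G93A mice lie above every other mouse, and Spp1, Cd63 and Cd9 start from a higher WT level than the other 5 genes.

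Per kilobase of exon, Spp1 had the highest level of the 8 genes in every group, Cd9 the second and Cd63 the third. In untreated WT mice at 155 days the levels were 79.3 ± 8.94 RPKM for Spp1, 33.1 ± 1.08 for Cd9, 22.3 ± 2.88 for Cd63, 0.606 ± 0.166 for Lpl, 0.469 ± 0.210 for Clec7a, 0.222 ± 0.0626 for Gpnmb, 0.160 ± 0.0850 for Cst7 and 0.0855 ± 0.0375 for Itgax (SD, n = 4). In untreated G93A mice of that age they were 381 ± 114 RPKM for Spp1, 192 ± 45.05 for Cd9, 88.7 ± 23.1 for Cd63, 43.9 ± 11.8 for Clec7a, 36.0 ± 13.8 for Cst7, 33.1 ± 13.8 for Gpnmb, 15.3 ± 4.41 for Lpl and 12.7 ± 3.38 for Itgax. The means of Clec7a, Cst7 and Gpnmb, and those of Lpl and Itgax, were closer to each other than 1 SD in this group, but all were measured in the same mice. In each of these mice Clec7a was above Gpnmb (37.2 against 32.7, 57.5 against 41.1, 49.6 against 44.8 and 31.4 against 13.9 RPKM). Lpl was above Itgax in each (10.5 against 9.53, 20.6 against 15.9, 16.8 against 15.2 and 13.2 against 9.96 RPKM). Cst7 was at 27.0, 38.0, 54.7 and 24.3 RPKM, so its place beside Clec7a and Gpnmb changed between mice and is not resolved.

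Pooling both treatments, G93A mice at 155 days had 35.1 ± 9.27 CPM of Cst7 against 0.144 ± 0.0609 in WT, 63.3 ± 12.6 of Itgax against 0.321 ± 0.154, 122 ± 24.0 of Clec7a against 1.001 ± 0.450 and 236 ± 79.5 of Gpnmb against 1.38 ± 0.341 (SD, n = 8). They had 641 ± 137 CPM of Spp1 against 131 ± 12.9, 165 ± 34.8 of Lpl against 6.202 ± 1.31, 343 ± 63.7 of Cd63 against 80.02 ± 8.89 and 422 ± 76.7 of Cd9 against 65.9 ± 3.94. For each of the 8 genes the 155-day G93A groups held the first and second place of the 8 groups, and the gap between those groups was smaller than the SD of the untreated one.

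Other genes of the same pathways rose beside the 8. Of the 24 further genes of the disease-associated program listed, 24 of 24 rose in untreated and 24 of 24 in OKN-007 G93A mice at 155 days, from 6.65 for Lilrb4a to 0.38 for Fth1 on the log2 scale in untreated mice, with medians of 2.90 and 3.06. Trem2, the receptor that the later step of the program depends on, rose by 3.53 (SE 0.21) on the log2 scale in untreated mice. Apoe, a lipoprotein that binds this receptor, rose by 2.47 (SE 0.19) in the same comparison. Of the molecular partners of the 8 gene products, 13 of 16 tested rose in untreated and 14 of 16 in OKN-007 mice, while Itgb3 and Igsf8 passed in neither and Gpihbp1 and Apoc2 were too low to be tested. Among these were Itgb2 (log2 fold change 3.64, SE 0.16), the beta subunit that pairs with integrin alpha X, Cd44 (2.75, SE 0.15), a receptor of osteopontin, Syk (1.99, SE 0.17) and Card9 (1.38, SE 0.17), which signal below dectin-1, and Ctsc (2.04, SE 0.13) and Ctsl (2.28, SE 0.18), lysosomal cysteine cathepsins. The extremes were Timp1 (6.82), whose protein binds CD63, and Mitf (0.24), a transcription factor known to drive Gpnmb. Of 6 other tetraspanin genes, 5 rose, with Cd53 (2.88), a leukocyte tetraspanin, at the top, and 1 fell, Tspan7 (-0.25).

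Homeostatic and general microglial genes rose as well, with smaller medians than the 8 as a set. Spp1 (2.31), Cd63 (2.04) and Cd9 (2.58) nevertheless rose less than the pan-myeloid median in untreated mice. The same held in OKN-007 mice (2.38, 2.27 and 2.89). All 12 homeostatic microglia genes listed rose in both treatments at 155 days, from 3.86 for Fcrls to 0.39 for P2ry12 on the log2 scale in untreated mice, with medians of 1.64 and 1.71. All 9 pan-myeloid genes rose, from 3.55 for C1qa to 2.27 for Itgam, with medians of 3.23 and 3.55, and Aif1, the gene of the protein IBA1 that the study stained, rose by 2.70 (SE 0.20) in untreated and 2.92 (SE 0.20) in OKN-007 mice. The summed level of the 9 pan-myeloid genes was 133 to 205 CPM in WT and 976 to 2051 CPM in G93A mice. Border and infiltrating macrophage genes stayed low, with a summed level of at most 6.86 CPM in any of the 32 mice, and 1 of 4 tested rose in untreated mice (Pf4, 1.39) and 2 of 4 in OKN-007 mice. Of the 6 astrocyte genes, 6 rose in untreated and 5 in OKN-007 mice, led by Gfap (2.401). Of the 3 melanocyte genes tested, whose cells also express Gpnmb, Pmel rose (1.75) and Tyr fell (-1.45), and of the 4 fibroblast genes 2 rose (Col1a1 0.67, Pdgfra 0.42). The cell source of Gpnmb was not tested.

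Genes of the caudal Hox clusters, which mark the level of the cord, differed with genotype in the 155-day samples: 7 of 11 tested fell in untreated and 6 of 11 in OKN-007 G93A mice (Hoxc12 -7.43 to Hoxd13 -1.46 in untreated mice), and their summed level was 92.5 to 179 CPM in WT and 4.57 to 81.3 CPM in G93A mice. Of 6 rostral Hox genes 1 rose (Hoxc8, 0.70) and 2 fell in untreated mice, among them Hoxd8 (-0.31). With the caudal Hox level as a covariate, 8 of 8 genes rose in both treatments, with log2 fold changes in untreated mice between 7.88 for Cst7 and 2.02 for Cd63. That fit called 4181 genes in all, higher or lower, in untreated and 5441 in OKN-007 mice. Without the covariate 7378 and 7747 of 18675 genes were called. That covariate, the mean log2 CPM of the caudal Hox genes, was -0.33 to 2.21 in WT and -2.77 to 1.22 in G93A mice. The genotypes thus overlapped on it only in part, and this fit cannot fully tell cord level and genotype apart. Liver genes, led by Alb, were present in single libraries (0.0412 to 139 CPM of Alb in 155-day G93A mice), and 1 of 5 tested, Apoa1, rose in OKN-007 mice while the other 4 passed in neither treatment. Their part in the results of the 8 genes was not tested.

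**Figure D2:**
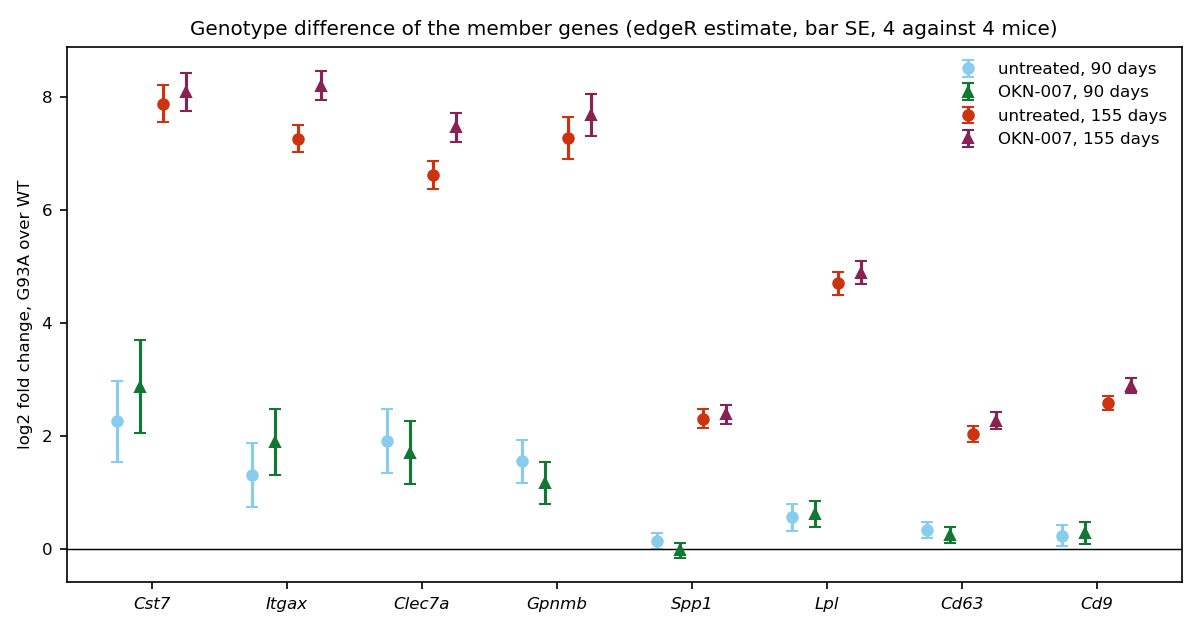
The log2 fold change of G93A over WT for each gene, by treatment and age, with its SE (edgeR, 4 against 4 mice). At 155 days the estimates run from 2.04 to 8.19 and at 90 days from -0.02 to 2.87, with wider bars for the genes of low counts.

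To ask whether the 8 genes rose beyond the homeostatic microglia genes, the log2 CPM of each gene was taken relative to the mean log2 CPM of the 12 homeostatic genes in the same mouse. These 12 rose less than the pan-myeloid genes (medians 1.64 and 3.23 in untreated mice), so the ratio does not stand for microglial genes in general. At 155 days this ratio was higher in G93A than in WT mice by 5.70 for Cst7, 5.73 for Itgax, 5.27 for Clec7a, 5.64 for Gpnmb, 3.08 for Lpl, 1.02 for Cd9, 0.62 for Spp1 and 0.44 for Cd63, on the log2 scale. Each of the 8 had an exact stratified permutation p of 0.000408 (two-sided, 8 against 8 mice, 4900 permutations within treatment), the smallest that these permutations can give, and an adjusted p of 0.000816 over the 16 tests made. For Spp1, Cd63 and Cd9 the result depended on the denominator: relative to Aif1 alone the difference was -0.45 for Spp1, -0.63 for Cd63 and -0.05 for Cd9.

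Itgax is an example of the size of this shift. Its level was 0.02 ± 0.16 from the homeostatic mean on the log2 scale in 155-day G93A mice, and -5.71 ± 0.42 in WT mice (SD, n = 8). For Cd63 the values were 2.46 ± 0.15 in G93A and 2.02 ± 0.20 in WT mice, so that this gene rose little more than the homeostatic genes did.

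**Figure D3:**
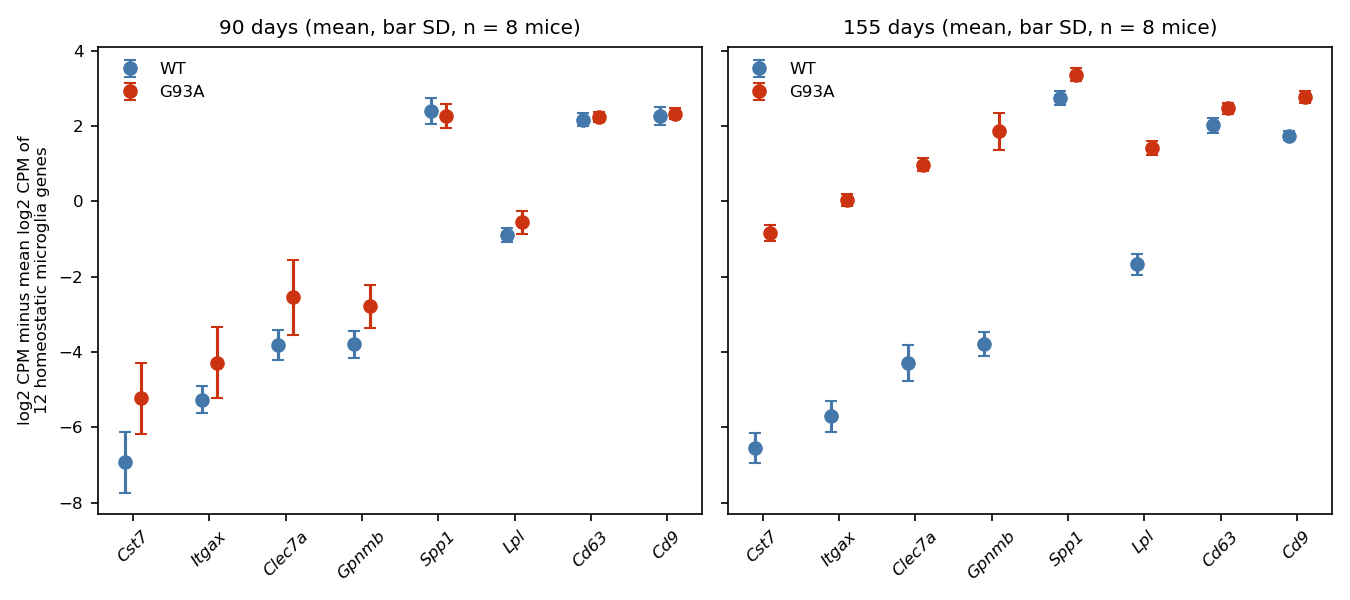
The log2 CPM of each gene minus the mean log2 CPM of 12 homeostatic microglia genes in the same mouse, as mean and SD of 8 mice per genotype, at 90 days (left) and 155 days (right). At 155 days Cst7, Itgax, Clec7a and Gpnmb are separated by 5.27 to 5.73 between genotypes and Cd63 by 0.44.

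At 90 days the differences were small beside those at 155 days, and they did not pass the test. Cst7, Itgax, Clec7a and Gpnmb had log2 fold changes of 2.26, 1.31, 1.91 and 1.55 in untreated mice and 2.87, 1.90, 1.71 and 1.17 in OKN-007 mice, and Lpl 0.56 and 0.62. Cd63 was at 0.33 and 0.25, Cd9 at 0.23 and 0.29, and Spp1 at 0.14 and -0.02. By edgeR's quasi-likelihood test 0 of 8 genes rose in untreated mice, where 0% of tested genes rose, and 0 of 8 in OKN-007 mice, where the share was also 0%. At an unadjusted p under 0.05 there were 6 of the 8 genes in untreated mice (among 1126 genes, 5.96% of those tested) and 5 in OKN-007 mice (among 747), and DESeq2 called 0 of the 8 in each, with 15 and 1 genes in all. With treatments averaged, 8 against 8 mice, edgeR called 0 of 8, where 0.0159% of tested genes rose (3 of 18899, Ccn5 3.95, Lgals3 1.95 and Thbs2 0.52), and 6 of the 8 had an unadjusted p under 0.05, beside 6.61% of all genes. DESeq2 called 4 of the 8 in the averaged comparison, Cst7, Itgax, Clec7a and Gpnmb, among 58 genes.

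The averaged log2 fold changes were 2.56 for Cst7 (SE 0.55, adjusted p = 0.130 by edgeR), 1.81 for Clec7a (SE 0.40, 0.137), 1.60 for Itgax (SE 0.40, 0.255) and 1.36 for Gpnmb (SE 0.27, 0.0870). They were 0.59 for Lpl (SE 0.17, adjusted p = 0.353), 0.29 for Cd63 (SE 0.10, 0.551), 0.26 for Cd9 (SE 0.13, 0.771) and 0.06 for Spp1 (SE 0.10, 0.956). Leaving out untreated G93A replicate 12 brought 3 of the 8 past the threshold, Cst7, Clec7a and Gpnmb. That mouse had the lowest value of the 8 G93A mice for each of these 3 genes. Leaving out replicate 9 brought 1, Gpnmb. How many of all tested genes passed in these fits is not given here. The groups overlapped for most genes: every G93A mouse was above every WT mouse for 0 of 8 genes in untreated mice (0.958% of tested genes), for 3 of 8 in OKN-007 mice, Cst7, Itgax and Gpnmb (1.81% of tested genes), and for 0 of 8 over all 16 mice (0.0159%). For Cst7 in OKN-007 mice that separation is nil in practice, since the lowest G93A mouse had 7 reads (0.27153 CPM) and the highest WT mouse 6 reads (0.27144 CPM).

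The G93A mice of 90 days differed among themselves. Cst7 was at 0.467, 1.59, 1.42 and 0.241 CPM in untreated G93A mice (12, 34, 33 and 7 reads, replicates 9 to 12) and at 0.272, 0.277, 0.902 and 1.46 CPM in OKN-007 G93A mice (7, 7, 24 and 43 reads, replicates 13 to 16), while the WT mice had 0 to 0.327 CPM. Replicates 10, 11, 15 and 16 were the 4 highest, and 5 of the 8 G93A mice exceeded every WT mouse. Itgax was at 0.544, 2.57, 2.71 and 0.517 CPM in untreated and 0.776, 0.751, 3.08 and 2.45 CPM in OKN-007 G93A mice, against 0.339 to 0.980 CPM in WT. Clec7a was at 3.23, 9.99, 8.05 and 1.52 CPM in untreated and 1.78, 3.08, 8.72 and 10.3 CPM in OKN-007 G93A mice, against 0.942 to 2.70 CPM in WT. In both genes the same 4 replicates were again the highest, and 4 and 6 of the 8 G93A mice lay above all WT mice.

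Gpnmb was at 2.57, 6.12, 8.22 and 1.998 CPM in untreated and 2.56, 3.68, 4.66 and 4.56 CPM in OKN-007 G93A mice of 90 days, with WT mice at 1.19 to 2.41 CPM, and 7 of the 8 exceeded every WT mouse. Lpl was at 14.8, 19.98, 22.7 and 12.2 CPM in untreated and 13.4, 16.9, 27.3 and 27.2 CPM in OKN-007 G93A mice, with WT mice at 9.69 to 18.1 CPM, and 4 of 8 exceeded all WT mice. Replicates 10, 11, 15 and 16 held the 4 highest places among the G93A mice for both genes, as they did for Cd63 and Cd9, which makes 7 of the 8 genes. Cd63 was at 126, 150, 151 and 95.9 CPM in untreated and 117, 121, 144 and 139 CPM in OKN-007 G93A mice, against 85.5 to 130 CPM in WT. Cd9 was at 114, 144, 180 and 101 CPM in untreated and 122, 132, 156 and 164 CPM in OKN-007 G93A mice, against 87.4 to 166 CPM in WT. Spp1 alone of the 8 had another order, with replicates 12, 11, 16 and 14 highest: it was at 130, 116, 148 and 167 CPM in untreated and 99.3, 134, 120 and 141 CPM in OKN-007 G93A mice, inside the WT range of 96.9 to 157 CPM but for replicate 12.

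Other measures were read in the same mice. For replicates 9 to 16 in order, Aif1 was at 8.16, 11.7, 12.4, 7.23, 7.99, 8.10, 11.2 and 10.9 CPM, with WT mice at 5.66 to 9.46 CPM. The summed pan-myeloid level was 209, 362, 354, 193, 235, 220, 279 and 291 CPM, with WT mice at 184 to 243 CPM, so the same 4 replicates were highest here too. The mean log2 CPM of the homeostatic genes was 4.72, 4.71, 4.94, 4.44, 4.70, 4.77, 4.97 and 4.93, with WT mice at 4.42 to 4.77. Motor neuron genes had mean log2 CPM values of 3.90, 3.74, 4.00, 4.61, 3.83, 4.25, 3.70 and 3.87, caudal Hox genes 0.43, 1.14, 0.11, 0.24, -2.43, -2.62, 1.17 and -0.28, and Alb was at 5.33, 5.14, 25.6, 0.413, 19.6, 1.74, 0.714 and 19.98 CPM, none of which set replicates 10, 11, 15 and 16 apart as 4 highest or 4 lowest. Untreated WT replicate 3 had the highest Cd9 of the WT mice (166 CPM), and without it the averaged log2 fold change of Cd9 was 0.37 (adjusted p = 0.534, edgeR).

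**Figure D4:**
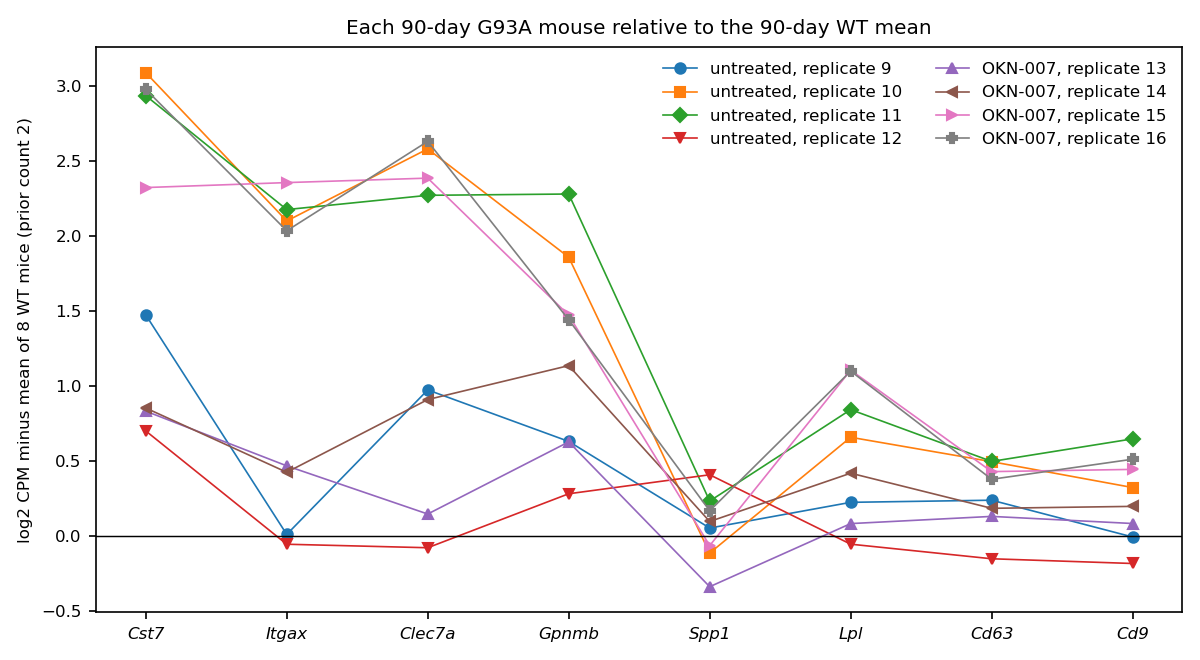
The log2 CPM (prior count 2) of the 8 genes in each 90-day G93A mouse, minus the mean of the 8 WT mice of that age, with 1 line per mouse. Replicates 10, 11, 15 and 16 lie above the other 4 mice for every gene but Spp1.

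Relative to the homeostatic genes of the same mouse, the difference at 90 days was 1.69 for Cst7 (adjusted p = 0.00261), 1.27 for Clec7a (0.0119), 1.01 for Gpnmb (0.00261), 0.99 for Itgax (0.0337) and 0.34 for Lpl (0.0283), by the exact stratified permutation test of 8 against 8 mice with adjustment over 16 tests. It was 0.07 for Cd63 (adjusted p = 0.389, exact permutation), 0.05 for Cd9 (0.646) and -0.15 for Spp1 (0.389). Against Aif1 in place of the homeostatic genes, Itgax and Lpl missed the threshold (0.77 with adjusted p = 0.0582 and 0.12 with 0.229, exact permutation), and both also missed it when certain single mice were left out. Cst7, Clec7a and Gpnmb passed with either denominator.

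The rise from 90 to 155 days was itself tested as the difference between the genotype changes at the ages, over 19829 genes and all 32 mice. It passed for 8 of 8 genes in untreated mice, where 12.9% of tested genes had a larger change at 155 days, and for 8 of 8 in OKN-007 mice, where the share was 13%. In untreated mice the difference was 5.97 for Itgax, 5.74 for Gpnmb, 5.65 for Cst7, 4.71 for Clec7a, 4.13 for Lpl, 2.34 for Cd9, 2.16 for Spp1 and 1.69 for Cd63 on the log2 scale, with adjusted p-values from 6.66e-10 for Lpl to 0.000196 for Cst7 (edgeR). In OKN-007 mice it was 6.47 for Gpnmb, 6.24 for Itgax, 5.70 for Clec7a, 5.15 for Cst7, 4.23 for Lpl, 2.57 for Cd9, 2.37 for Spp1 and 1.99 for Cd63. The value for Cst7 in OKN-007 mice (adjusted p = 0.00949, edgeR) rests on 6, 2, 1 and 0 reads in the 4 WT mice of 90 days, and without WT OKN-007 replicate 5, which held the 6, it was 4.03 with an adjusted p of 0.23. Because the ages were separate groups of mice, age and handling at each time cannot be told apart.

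Within WT mice, 3 of the 8 genes fell from 90 to 155 days, where 20.2% of tested genes fell and 24.0% rose. Lpl fell by 1.05 (SE 0.17, adjusted p = 1.25e-05, edgeR), from 12.9 ± 2.78 to 6.202 ± 1.31 CPM, Cd9 fell by 0.83 (SE 0.12, adjusted p = 2.16e-06), from 117 ± 24.4 to 65.9 ± 3.94 CPM, and Cd63 fell by 0.42 (SE 0.11, adjusted p = 0.00155), from 108 ± 13.4 to 80.02 ± 8.89 CPM (SD, n = 8). For Lpl and Cd9 the WT mice of both ages did not overlap, at 9.69 to 18.1 against 4.77 to 8.14 CPM and at 87.4 to 166 against 58.3 to 69.8 CPM. Itgax (-0.82), Clec7a (-0.79), Gpnmb (-0.28), Cst7 (0.05) and Spp1 (0.05) did not pass. Marker lists moved with age in the same WT mice: the summed level of the 6 oligodendrocyte genes was 32576 to 53075 CPM at 90 and 20274 to 23591 CPM at 155 days, with no overlap, that of the caudal Hox genes 19.6 to 104 and 92.5 to 179 CPM, and that of the pan-myeloid genes 184 to 243 and 133 to 205 CPM. With the caudal Hox level as a covariate the same count of 3 genes fell, among 8062 genes called in all (8770 without it). The part of the oligodendrocyte and myeloid levels in these falls was not tested. This comparison was added after the values had been seen, and the WT level is the reference of the genotype by age differences above.

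OKN-007 against untreated mice addressed whether the compound changed these genes. In 155-day G93A mice 0 of 8 genes changed by edgeR's test, where 0% of tested genes rose and 0% fell, 0 of the 8 had an unadjusted p under 0.05 (755 genes did), and DESeq2 also called 0 of 8 and 0 genes. The log2 fold changes with their 95% intervals were -0.02 (-0.40 to 0.35) for Cst7, 0.13 (-0.18 to 0.43) for Itgax, 0.16 (-0.19 to 0.50) for Clec7a and 0.26 (-0.27 to 0.79) for Gpnmb. They were 0.07 (-0.25 to 0.39) for Spp1, 0.10 (-0.25 to 0.46) for Lpl, 0.15 (-0.15 to 0.45) for Cd63 and 0.21 (-0.04 to 0.46) for Cd9. Each interval includes 0, and 7 of the 8 estimates were above 0, beside 48.2% of all tested genes. The 8 estimates come from the same mice, so they are not 8 separate observations. The lowest bound, -0.40 for Cst7, is the largest fall that these intervals allow.

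In 90-day G93A mice the mice of each treatment were spread more widely, and 0 of 8 genes changed (edgeR, 0% of tested genes rose and 0% fell, 1050 genes and 0 of the 8 at an unadjusted p under 0.05, 0 genes by DESeq2). The intervals were -1.64 to 0.96 around -0.34 for Cst7, -0.93 to 1.23 around 0.15 for Itgax, -1.02 to 1.13 around 0.06 for Clec7a and -1.05 to 0.43 around -0.31 for Gpnmb. Cst7 rested on 7 to 43 reads per mouse. Spp1 (-0.19, -0.48 to 0.09), Lpl (0.27, -0.23 to 0.76), Cd63 (-0.03, -0.32 to 0.27) and Cd9 (0.07, -0.32 to 0.46) had narrower intervals.

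In WT mice OKN-007 changed 0 of 8 genes at 155 days (edgeR, 0% of tested genes rose and 0% fell, 549 genes and 0 of the 8 at an unadjusted p under 0.05, 3 genes and 0 of the 8 by DESeq2) and 0 of 8 at 90 days (0% and 0%, 769 genes and 0 of the 8 unadjusted, 0 genes by DESeq2). At 155 days all 8 estimates were at or below 0, from -0.81 (-1.83 to 0.21) for Itgax and -0.69 (-1.45 to 0.08) for Clec7a to -0.00 for Spp1, while 42.2% of all tested genes were above 0. These 8 estimates too share the same mice and are not 8 separate observations. At 90 days the estimates ran from -0.95 (-2.95 to 1.04) for Cst7 to 0.26 (-0.99 to 1.52) for Clec7a.

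The test of whether the genotype change differed between untreated and OKN-007 mice passed for 0 of 8 genes at 155 days (edgeR, 0% of tested genes with a larger and 0% with a smaller change under OKN-007, 437 genes and 1 of the 8 at an unadjusted p under 0.05, 3 genes and 0 of the 8 by DESeq2). The 1 gene was Clec7a, with a difference of 0.84 and an unadjusted p of 0.0496 by edgeR's quasi-likelihood test, from WT means of 1.24 CPM untreated and 0.764 CPM with OKN-007 and G93A means of 116 and 128 CPM. Itgax had the largest estimate, 0.94 (-0.12 to 2.002). At 90 days the test passed for 0 of 8 genes (0% and 0% of tested genes, 531 genes and 0 of the 8 unadjusted, 0 genes by DESeq2), with estimates from -0.38 for Gpnmb to 0.62 for Cst7.

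**Figure D5:**
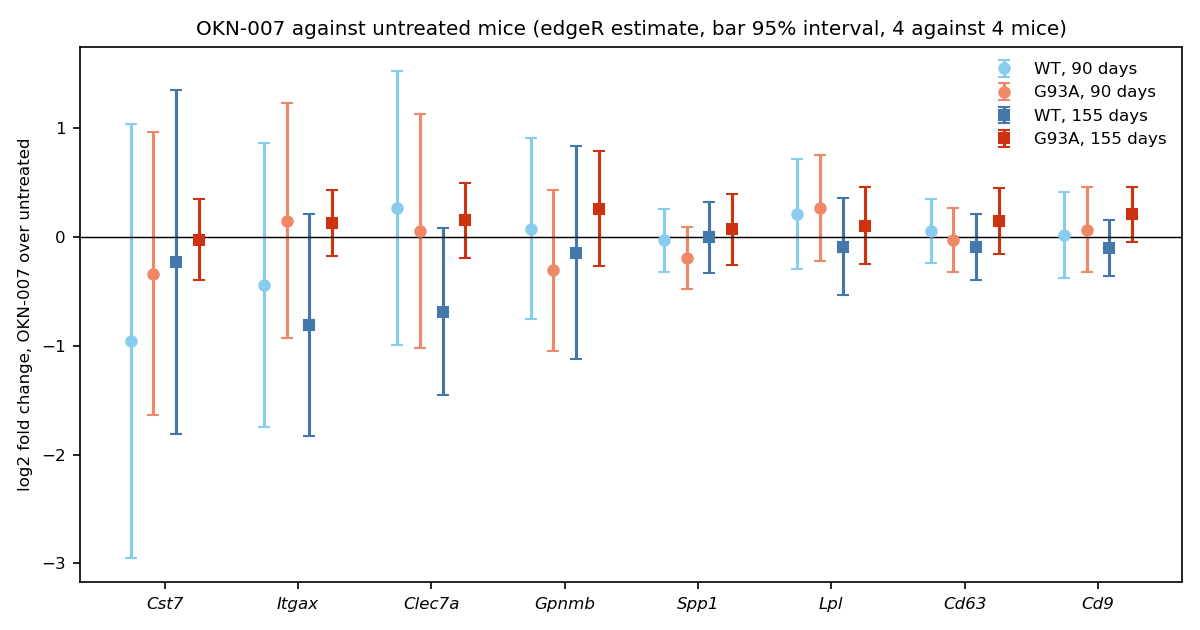
The log2 fold change of OKN-007 over untreated mice for each gene, by genotype and age, with its 95% interval (edgeR, 4 against 4 mice). Every interval includes 0, and the widest, -2.95 to 1.04, is that of Cst7 in 90-day WT mice.

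Among the 8 G93A mice of 155 days the 8 genes varied together. All 28 pairs of genes had a positive Pearson correlation of log2 CPM, from r = 0.589 for Gpnmb and Lpl to r = 0.979 for Itgax and Cd9, with a median of 0.884 and a median Spearman rho of 0.881. By exact permutation with Benjamini-Hochberg adjustment over 28 pairs, 25 pairs passed by r and 24 by rho, with smallest adjusted p-values of 0.000694 and 0.00139. The pair of Spp1 and Cd63 had r = 0.961 and rho = 1 (adjusted exact permutation p = 0.000694 and 0.00139). Without the 2 mice farthest from the median, the median r was 0.856 and 13 of 28 pairs passed, and r was 0.589 to 0.970 over these 6 mice. Fewer pairs passed with 6 mice, while r of several uncalled pairs was no lower, for example 0.821 for Itgax and Gpnmb (0.759 with all 8 mice), and the 13 include Cst7 with Lpl, which failed with all mice. The 3 pairs that failed with all 8 mice were Gpnmb with Lpl (r = 0.589), Cst7 with Lpl (r = 0.649) and Cst7 with Gpnmb (r = 0.724). Over all pairs of the 18675 genes tested the median r in these mice was 0.012, and over pairs of the 3538 genes that rose in both treatments it was 0.484, with 85.7% of pairs positive and 4.22% at or above the median r of the 8 genes. The 8 genes of a mouse come from 1 library and share its cell composition.

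The genes of the table whose profile over the 8 group means was most like each of the 8 were found by the root mean square difference of centered log2 CPM over 19755 genes. For Clec7a, Gpnmb and Itgax the nearest gene was Tgm1, a transglutaminase gene, at 0.31, 0.39 and 0.41, followed by Ccl3 (0.43), a chemokine gene, Atp6v0d2 (0.47), a subunit of the vacuolar proton pump, and Lilrb4a (0.51), an inhibitory receptor gene. For Cst7 they were Mmp12 (0.42), a macrophage elastase gene, and Ccn5 (0.48), for Lpl Slc43a3 (0.27) and C3ar1 (0.28), the receptor of complement C3a. For Spp1 they were Cebpa (0.09), a myeloid transcription factor gene, and Slc37a2 (0.09), for Cd63 Cela1 (0.04) and Pdlim4 (0.05), and for Cd9 Gngt2 (0.08) and Cd44 (0.10). Within the 8, the closest profiles were those of Cd63 and Cd9 (0.21) and of Itgax and Gpnmb (0.28).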

How the data were processed

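Spinal cord RNA of 32 mice (4 in each of 8 groups) was sequenced from 25 mg pieces with a stranded mRNA kit. The authors aligned the reads with STAR and deposited raw counts per gene, which are not normalized. The study's methods name STAR 2.4.0h, HTSeq 0.5.3p9, GRCm38 and GENCODE M10, whereas the submitters' processing notes name featureCounts, edgeR and GRCm39. The table holds gene IDs newer than GENCODE M21, so the annotation used for counting is not settled, and the strand setting of the counting was not given in the sources used here. Symbols and positions were taken from GENCODE M21, which matched 41203 of 42524 IDs (96.9%), and exon lengths for RPKM were unions of its exons. Promoter sequences were taken from RefSeq.

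The counts were analysed with edgeR 4.0.16 in R 4.3.3 (filterByExpr, TMM factors between 0.956 and 1.09, glmQLFit, glmQLFTest), with the 16 mice of an age in one fit of 4 groups, and all 32 mice in one fit for genotype by age and for the WT ages. Benjamini-Hochberg adjustment ran over all genes of a fit, and standard errors came from the quasi-likelihood F statistic. DESeq2 1.42.0, RLE factors, no filter on low counts, only the compared groups, a caudal Hox covariate, a replicate block, other prior counts or denominators and leaving out each mouse were alternatives. Log2 CPM used a prior count of 2. Permutation tests were exact (scipy 1.17.1). On simulated counts for untreated G93A against WT at 155 days (17553 genes), 81 of 100 genes changed 2-fold and 98 of 99 changed 4-fold were recovered, and 6 of 185 calls were false. The simulated spread of every group was that of the 155-day WT mice, so these rates do not cover a different spread in G93A mice. Closest libraries within a group differed by a chi-square of 3.54 per gene, so none was counted as a repeat.

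The members and gene lists were chosen with earlier results of these data known. The genes named are the 8 members, from each other list the genes with the largest and smallest log2 fold change among those called in untreated mice at 155 days together with those against the list's direction, the 2 nearest profiles of each member, and Aif1. Trem2, Apoe, Itgb2, Cd44, Syk, Card9, Ctsc, Ctsl, Alb, the genes called at 90 days and genes named as not passing or not tested were named after their values were seen, and results on 1 listed gene are not reported here. Replicate numbers are unique to a mouse within an age, the positions within a group were checked as a possible pairing, and correlations of deviations ranged from -0.219 to 0.135, over 0.1 in 2 of 16 pairs, so they were taken not to pair mice.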

Additional observations from a re-analysis of the deposited data

Results flagged for a closer look

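In 5 of the 64 groups of 4 mice (8 genes in 8 groups), 1 mouse stood apart from the other 3 by Dixon's criterion, where chance gives about 1 in 20, or 3.2 groups. Cst7 was at 0.0327 CPM in untreated WT replicate 4 at 155 days, with the next mouse at 0.190 CPM, and at 0.180 CPM in WT OKN-007 replicate 8 at 155 days, with the next at 0.115 CPM. Itgax was at 0.980 CPM in untreated WT replicate 4 at 90 days, with the next at 0.557 CPM. Spp1 was at 151 CPM in WT OKN-007 replicate 8 at 155 days, with the next at 127 CPM, and Cd9 was at 140 CPM in WT OKN-007 replicate 5 at 90 days, with the next at 110 CPM. All 5 are WT mice, and the Cst7 values are 1 and 5 reads.

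The genotype change differed between 90 and 155 days for each of the 8 genes in each treatment (edgeR's quasi-likelihood test of the genotype by age interaction, adjusted over 19829 genes). In untreated mice the log2 difference was 5.65 for Cst7 (SE 1.06), 5.97 for Itgax (SE 0.72), 4.71 for Clec7a (SE 0.71), 5.74 for Gpnmb (SE 0.60), 2.16 for Spp1 (SE 0.23), 4.13 for Lpl (SE 0.33), 1.69 for Cd63 (SE 0.21) and 2.34 for Cd9 (SE 0.24). In OKN-007 mice it was 5.15 for Cst7 (SE 1.44), 6.24 for Itgax (SE 0.86), 5.70 for Clec7a (SE 0.73), 6.47 for Gpnmb (SE 0.62), 2.37 for Spp1 (SE 0.23), 4.23 for Lpl (SE 0.33), 1.99 for Cd63 (SE 0.21) and 2.57 for Cd9 (SE 0.24). The adjusted p-values were at most 0.000196 in untreated mice and 0.00949 in OKN-007 mice.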

How the results depend on the processing

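At 155 days the rise of all 8 genes, in each treatment, passed under every alternative run, with DESeq2, RLE factors, no filter on low counts, the caudal Hox covariate and without each mouse. In untreated and OKN-007 mice DESeq2 called 7509 and 7948 genes in all. The counts were 6784 and 7178 with no filter, and 4181 and 5441 with the covariate. The replicate block changed no call, with 8 and 8 genes called in the genotype by age differences (4197 and 4624 genes in all), but the numbers do not pair the mice. At 90 days the calls depended on the processing. The averaged comparison called 0 of 8 by edgeR (among 5 genes called), 4 by DESeq2 (among 58) and 5 with no filter on low counts (among 110). Without 1 mouse it called 0 to 3 (3 without untreated G93A replicate 12, 1 without replicate 9). Replicate 12 was the lowest G93A mouse for the 3 genes concerned. With no filter 2 were called in untreated (among 39 genes) and 1 in OKN-007 mice (among 24). Cst7 with OKN-007 missed the genotype by age threshold without WT OKN-007 replicate 5 (values without 1 mouse 4.03 to 5.76), so 7 to 8 genes were called there. The cause was not tested.

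Relative to Aif1 in place of the homeostatic genes the difference was -0.63 for Cd63, -0.053 for Cd9 and -0.45 for Spp1 at 155 days and -0.15 for Cd63 and -0.17 for Cd9 at 90 days, and at 90 days Itgax (0.77) and Lpl (0.12) missed the threshold. Without 1 mouse these 90-day values were 0.81 to 1.16 for Itgax, with adjusted exact permutation p up to 0.0653, and 0.29 to 0.42 for Lpl, up to 0.0608. By rho 24 and without the farthest mice 13 of 28 correlations passed.

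Several estimates near 0, uncalled in each case, changed sign. With the caudal Hox covariate these were Cst7 (0.26) and Cd63 (0.052) for OKN-007 in 90-day G93A mice, Itgax (0.26) and Cd9 (-0.014) in 90-day WT mice, Spp1 (0.052) in 155-day WT mice and Cst7 (-0.18) for the WT ages. With no filter they were Cd63 (0.016) in 90-day G93A mice and Spp1 (0.0063) in 155-day WT mice, and with only the compared groups Spp1 (0.011). The values without 1 mouse crossed 0 for OKN-007 in 90-day G93A mice for Cd63 (-0.16 to 0.064), Cd9 (-0.055 to 0.24), Clec7a (-0.35 to 0.50), Cst7 (-0.94 to 0.072), Gpnmb (-0.57 to 0.11) and Itgax (-0.25 to 0.55). They did so in 155-day G93A mice for Cst7 (-0.17 to 0.25), Lpl (-0.039 to 0.27) and Spp1 (-0.087 to 0.23). The same held in 90-day WT mice for Cd63 (-0.042 to 0.12), Cd9 (-0.10 to 0.23), Gpnmb (-0.092 to 0.32) and Spp1 (-0.14 to 0.068). They also did so in 155-day WT mice for Cd63 (-0.17 to 0.020), Gpnmb (-0.28 to 0.016), Lpl (-0.19 to 0.049) and Spp1 (-0.072 to 0.041). The same held for the genotype by treatment difference at 90 days for Cd63 (-0.21 to 0.017), Cd9 (-0.16 to 0.23), Clec7a (-0.61 to 0.23), Gpnmb (-0.65 to 0.031) and Lpl (-0.089 to 0.23). They also did so for that difference at 155 days for Cst7 (-0.0023 to 0.56) and Spp1 (-0.084 to 0.23). The same held for the WT ages for Cst7 (-0.13 to 0.61) and Spp1 (-0.052 to 0.10). They also did so for G93A OKN-007 against WT OKN-007 at 90 days for Spp1 (-0.092 to 0.070).

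Depth limits the low genes most, since Cst7 in WT mice rested on 0 to 8 reads and its WT level is near the 0.152 CPM that 3 counts give.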

Other observations

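Among the 155-day G93A mice the coefficient of variation of CPM was lower in the OKN-007 group than in the untreated group for 8 of 8 genes, for example 10.9% against 38.4% for Cst7, 10.9% against 26.1% for Cd63, 13.4% against 30.02% for Spp1 and 29.1% against 41.6% for Gpnmb. It was also lower for 68.2% of the 18675 genes tested at that age. With 4 mice in each group this difference in spread was not tested, and the 8 genes vary together between mice, so the 8 are not 8 separate observations.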
